A study of Homo sapiens with 10 samples.

Results

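The genes described here encode the enzymes that build cholesterol and long-chain fatty acids, together with regulators of their transcription and 1 sterol carrier. They were chosen by name, as rows of the deposited gene count file whose Ensembl identifier carries 1 of 30 listed symbols, and 29 of the 30 were found among the 55841 rows of the file. ACACA, the acetyl-CoA carboxylase of fatty acid synthesis, had no row under the Ensembl identifier that the annotation used here gives it. ACACA is therefore not analysed here, and whether its counts stand under another identifier was not tested. The 29 genes comprised 19 of the sterol pathway, 6 of fatty acid synthesis and desaturation, and 4 of regulation and transfer.

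The question of the study was how the pluripotent stem cells that renew themselves best differ from the culture they come from. Bulk RNA was sequenced from 10 libraries of HES9, an embryonic stem cell line, grown without feeders on matrigel in mTESR1 medium. Of these, 5 were the general population, which was not sorted, and 5 were the HHH fraction, sorted for the highest EPCAM, GCTM2 and CD9 surface staining. The labels name no genotype change and no agent for either group, although the design text of the series mentions inhibitors of protein kinase C, and the study's methods name the line WA09 where the labels give HES9. The labels assign the libraries to 2 batches without saying what a batch is. Batch 1 held 2 libraries of each population, and batch 2 held 3. Because only the HHH cells went through the sorter, the fraction and the handling by sorting cannot be told apart, and the general population still contains the cells of the HHH fraction. All libraries came from 1 line, and since nothing in the labels says that they came from separate cultures, the p-values measure the spread between these libraries, which may be technical. In bulk RNA, fewer cells of a type and less RNA per cell cannot be told apart.

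Cholesterol is assembled from acetyl-CoA through the mevalonate pathway, which yields the isoprenoid farnesyl diphosphate; 2 such units are joined into squalene, which is closed to lanosterol and then trimmed to cholesterol. Fatty acids are made from the same precursor by a carboxylase and a synthase and are then elongated and desaturated. Most of these genes are switched on together by the sterol regulatory element binding proteins (SREBPs), transcription factors held in the endoplasmic reticulum by INSIG proteins when sterols are plentiful and released when sterols run low.

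Promoter stretches are printed for 5 of the genes, because the SREBPs bind sterol regulatory elements and act with the factors that bind CCAAT and GC boxes. RefSeq (GRCh38.p14) gave promoter windows of 300 bases, 250 before and 50 after a start site, for 25 of the 29 genes. The 100-base stretch shown for each gene lies upstream of a start site and was the one that held the sterol element where there was one, and otherwise the one with the most matches over the windows of that gene. Capitals mark TCACNCCAC (a sterol regulatory element), CCAAT (the CCAAT box) and GGGCGG (the GC box), each on either strand, so that ATTGG and CCGCCC are also in capitals. In the stretches shown no letter belongs to matches of different motifs, and in INSIG1 1 letter is shared by adjoining GC boxes.
SREBF2, chr22:41832972-41833071, + strand, the start of the gene of SREBP2 and the 1 member window with the sterol element: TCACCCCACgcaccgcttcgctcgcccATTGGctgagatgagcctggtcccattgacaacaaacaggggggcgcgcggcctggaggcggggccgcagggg
HMGCS1, chr5:43313468-43313567, - strand, among the genes with the largest difference between batches: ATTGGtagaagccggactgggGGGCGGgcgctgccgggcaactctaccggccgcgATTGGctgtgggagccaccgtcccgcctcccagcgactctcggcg
MVD, chr16:88663151-88663250, - strand, likewise with a large difference between batches: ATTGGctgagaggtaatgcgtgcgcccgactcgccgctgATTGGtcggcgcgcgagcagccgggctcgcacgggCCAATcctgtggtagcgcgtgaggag
INSIG1, chr7:155297708-155297807, + strand, a regulator of the pathway: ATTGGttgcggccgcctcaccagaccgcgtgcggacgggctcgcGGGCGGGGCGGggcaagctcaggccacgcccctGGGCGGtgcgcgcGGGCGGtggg
GGPS1, chr1:235328470-235328569, + strand, the 1 gene with a fold change above 0 between batches: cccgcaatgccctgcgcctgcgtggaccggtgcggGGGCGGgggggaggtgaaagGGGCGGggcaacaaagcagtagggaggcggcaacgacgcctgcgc

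The CCAAT box letters occurred in 23 of the 34 windows of these genes (67.6%), against 34.6% of all 35116 RefSeq windows of the same length. The GC box letters occurred in 30 of the 34 (88.2%), against 45.0% of all windows. Windows of 1 gene can overlap, so that a site can be counted more than once. By gene, 20 of the 25 had the CCAAT letters in some window and 24 the GC box letters, and the share of all genes was not counted. The sterol element occurred in 1 of the 34, that of SREBF2 (2.94%), against 1.13% of all windows. These are matches of letters and not measured binding sites, and a window without a match says nothing of the factor.

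Counts per library summed to between 47242595 and 78503395, and levels are given as CPM, with each library's total first corrected by TMM (the trimmed mean of M-values), so that 1 count was worth between 0.0153 and 0.0229 CPM. Of all counts, small nuclear and nucleolar RNAs made up 3.80 ± 1.00% in batch 1 (SD, n = 4) and 0.608 ± 0.108% in batch 2 (SD, n = 6). The 10 most abundant genes took 20.9 ± 2.54% and 9.68 ± 1.47%, respectively. Of 8 pluripotency markers, all were counted in every group, with a summed level of 4299 to 5832 CPM over the libraries. The 11 neural markers summed to between 257 and 275 CPM in the general population and between 239.9 and 258 CPM in HHH in batch 1, and to between 304 and 356 CPM and between 151 and 207 CPM in batch 2, with EMX2 at 0 in HHH in both batches and SIX3 at 0 in HHH in batch 1. By the test over both batches described below, 5 of the 7 neural markers tested were lower in HHH, and of the 8 pluripotency markers NANOG (0.44 on the log2 scale) and EPCAM (0.41), a gene of the sort, were higher and SOX2 (-0.26) lower. The 7 fibroblast markers summed to between 271 and 353 CPM, led by THY1, which pluripotent cells also carry, with DCN at 0 in all groups but HHH in batch 1 and LUM at 0 in the general population in batch 2. Of the 4 fibroblast markers tested, THY1 was higher in HHH (0.61) and COL1A1, a collagen gene, lower (-0.94). The 8 mesendoderm and endoderm markers summed to at most 2.59 CPM.

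All 29 genes were well counted, with no count below 577 in any library, so that all passed the filter on low counts. Per kilobase of exon, averaged over the 10 libraries, the levels ran from 2.02 CPM for MVK, the mevalonate kinase, to 213 CPM for SCD, the desaturase that makes oleate. ACLY, which supplies acetyl-CoA in the cytosol, followed SCD with 140.0 CPM per kilobase, ahead of FDFT1, the squalene synthase, with 82.6, and FASN, the fatty acid synthase, with 77.3. SREBF2 stood at 18.6 CPM per kilobase and SREBF1 at 5.37. The 29 genes summed to 8587 ± 588 CPM in batch 1 (SD, n = 4) and 5484 ± 241 CPM in batch 2 (SD, n = 6). Within batch 1 the sums were 8200.4 and 8312 CPM in the general population and 8372 and 9463 CPM in HHH, and within batch 2 they were 5419.5, 5488 and 5179 CPM in the general population and 5898, 5561 and 5359 CPM in HHH. The sums of the populations did not overlap in batch 1 and overlapped in batch 2, and every batch 1 library lay above every batch 2 library.

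**Figure D1:**
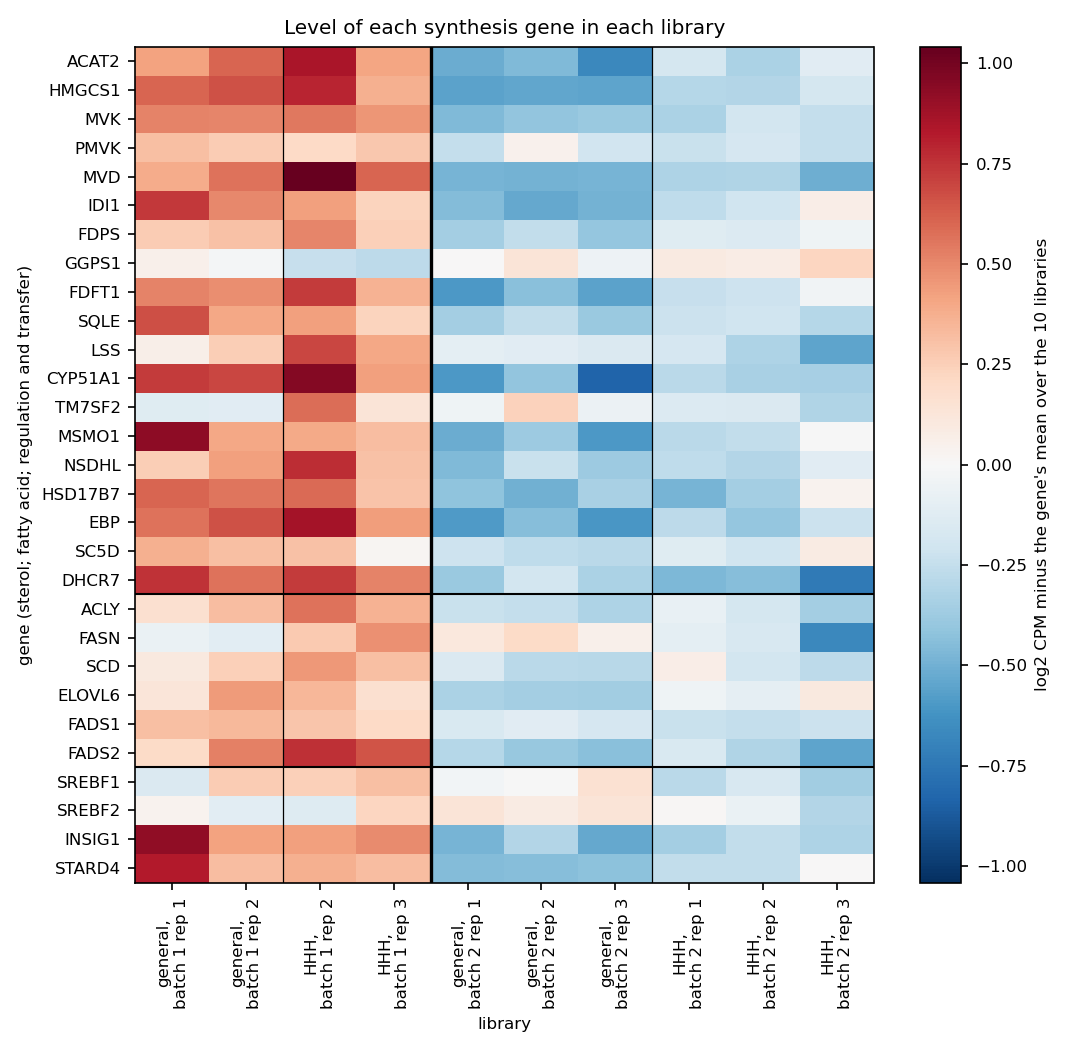
Level of the 29 genes (rows, in pathway order, with lines between the sterol, the fatty acid and the regulation and transfer genes) in the 10 libraries (columns), coloured by log2 CPM minus the gene's mean over all libraries. The 4 batch 1 libraries are above the mean for most genes and the 6 batch 2 libraries below it, whereas the populations within a batch differ less.

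The main comparison asked whether these genes differed between the HHH fraction and the general population, with batch as a term. None of the 29 genes passed the edgeR quasi-likelihood test at an adjusted p under 0.05 (Benjamini-Hochberg over 23552 genes), where 5.83% of all tested genes did. At an unadjusted p under 0.05 there were 4 of 29, ACAT2, FDFT1, FDPS and MVD, against 20.9% of all genes, and DESeq2 and limma with voom also called 0, where they called 8.57% and 5.85% of all genes. The log2 fold changes ran from -0.16 for DHCR7 to 0.25 for ACAT2, with a median of 0.07, against 0.02 over all genes, and 20 of 29 lay above 0, against 53.0% of all genes. With libraries scaled by their size only, 18 did, against 45.4%. The 95% intervals of these fold changes, which average the batches, were narrow. All 29 lay within a 1.5-fold change in either direction, the outermost bounds being 1.37-fold higher (ACAT2) and 1.31-fold lower (FASN), and 25 of 29 included 0.

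**Figure D2:**
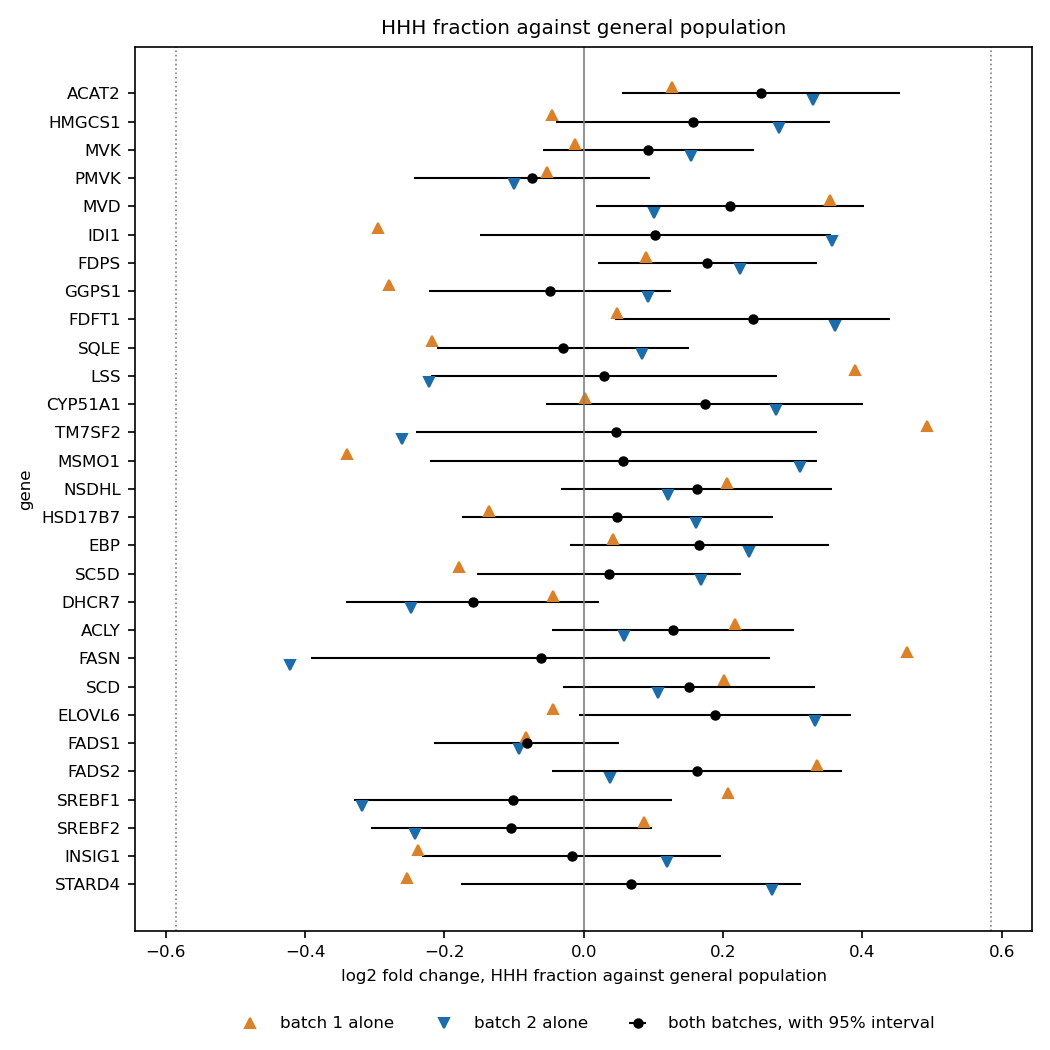
Log2 fold change of HHH against the general population for each gene. Black points with bars are the fit over both batches with its 95% interval, triangles pointing up are batch 1 alone, triangles pointing down are batch 2 alone, and dotted lines mark a 1.5-fold change. All 29 intervals stay inside the dotted lines, and for 16 genes the triangles lie on opposite sides of 0.

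ACAT2, which joins acetyl-CoA units at the start of the mevalonate pathway, had the highest fold change. Its levels in batch 1 were 238 and 271 CPM in the general population and 321 and 237 CPM in HHH. In batch 2 they were 125, 129.8 and 112 CPM in the general population and 157, 142 and 164 CPM in HHH. The groups overlapped in batch 1, where 1 HHH library lay above and 1 below both general libraries, and did not overlap in batch 2. Over both batches the log2 fold change was 0.25 ± 0.09 (SE) with an edgeR adjusted p of 0.135. A share of 17.2% of the ACAT2 exon length overlaps TCP1, and whether the counting used strand is not given in the sources used here.

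FDFT1, which commits farnesyl diphosphate to sterols, was next. In batch 1 it stood at 569.8 and 559 CPM in the general population and at 659 and 512 CPM in HHH, and in batch 2 at 263, 294 and 271 CPM and at 337, 343 and 389 CPM, respectively. Again the HHH libraries lay on both sides of the general ones in batch 1 and above all of them in batch 2. The log2 fold change was 0.24 ± 0.09 (SE), with an edgeR adjusted p of 0.148, which became 0.0482, with a log2 fold change of 0.34, when the replicate number entered as a block. No other member passed with that block, where 6.95% of all genes did. In batch 1 only replicate 2 was present in both populations. General batch 1 replicate 1 and HHH batch 1 replicate 3 had no partner, so they did not weigh on the fold change of the block.

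MVD, the decarboxylase that makes isopentenyl diphosphate, had the third highest value. Its levels were 70.6 and 80.3 CPM (general) and 111 and 82.4 CPM (HHH) in batch 1, and 38.7, 38.5 and 38.7 CPM (general) and 43.3, 43.6 and 38.1 CPM (HHH) in batch 2. The groups did not overlap in batch 1, and in batch 2 the lowest library of all was an HHH library. Its log2 fold change of 0.21 ± 0.09 (SE) had an edgeR adjusted p of 0.202.

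At the other end stood DHCR7, the reductase of the last step to cholesterol, and the genes of both SREBPs. DHCR7 was at 179.9 and 157 CPM (general) and 176 and 152 CPM (HHH) in batch 1, and at 81.4, 93.4 and 84.9 CPM (general) and 77.0, 78.6 and 64.1 CPM (HHH) in batch 2. The groups overlapped in batch 1, and all HHH libraries lay below the general ones in batch 2. The log2 fold change of DHCR7 was -0.16 ± 0.09 (SE), with an edgeR adjusted p of 0.302.

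SREBF2, whose protein mainly drives the sterol genes, was at 152 and 138 CPM (general) and 136 and 174 CPM (HHH) in batch 1, and at 163, 158 and 163 CPM (general) and 149.8, 141 and 120.2 CPM (HHH) in batch 2. The groups overlapped in batch 1 and did not in batch 2, where HHH was lower. Its log2 fold change was -0.10 ± 0.09 (SE), with an edgeR adjusted p of 0.563. SREBF1, whose protein mainly drives the fatty acid genes, had a log2 fold change of -0.10 ± 0.11 (SE), with an adjusted p of 0.629. INSIG1, which holds the SREBPs in the endoplasmic reticulum and is itself an SREBP target, was at 186 and 132 CPM (general) and 133 and 138 CPM (HHH) in batch 1, and at 70.4, 79.7 and 68.2 CPM (general) and 76.9, 82.4 and 79.0 CPM (HHH) in batch 2. The groups overlapped in both batches, and the log2 fold change of INSIG1 was -0.02 ± 0.10 (SE), with an edgeR adjusted p of 0.943.

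Fitted alone, batch 1 gave 0 of 29 genes at an adjusted p under 0.05, against 0.573% of all genes, and 7 at an unadjusted p under 0.05, against 12.5%. DESeq2 was not run within a batch. Batch 2 alone gave 6 of 29, against 13.2% of all genes. Of these 6, 5 were higher in HHH (5.13% of all genes were) and 1 was lower (8.05%), which were 17.2% and 3.45% of the 29 genes. None of the 6 passed 1.5-fold, as 4.90% of all genes did, and 16 of the 29 were under an unadjusted p of 0.05, against 29.8%.

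ELOVL6, the elongase that extends palmitate, was at 105, 103 and 103 CPM in the general population and at 128, 124 and 141 CPM in HHH in batch 2. The HHH libraries lay above all general ones, and the log2 fold change was 0.33 ± 0.08 (SE), at an edgeR adjusted p of 0.0203. In batch 1 the levels were 144 and 179.6 CPM (general) and 168 and 148 CPM (HHH), which overlapped, with a log2 fold change of -0.04. When each batch 2 library was left out in turn, ELOVL6 remained under 0.05 in 4 of 6 fits.

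FDFT1 had a log2 fold change of 0.36 ± 0.09 (SE) in batch 2 alone, with an edgeR adjusted p of 0.0238, from the levels given above, and remained under 0.05 in 3 of 6 fits. ACAT2 had 0.33 ± 0.09 (SE), with an adjusted p of 0.0314, and remained so in 2 of 6. Both sat within their own spread in batch 1, with log2 fold changes of 0.05 and 0.13.

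IDI1, the isomerase that interconverts the isoprenoid building blocks, was at 87.9, 83.3 and 85.6 CPM (general) and at 100.3, 104 and 126 CPM (HHH) in batch 2. All HHH libraries were above the general ones, with a log2 fold change of 0.36 ± 0.10 (SE) and an edgeR adjusted p of 0.0283, kept in 3 of 6 fits. In batch 1 the order was the opposite, with 200.2 and 169.9 CPM (general) above 162 and 141 CPM (HHH), and the log2 fold change there was -0.30 with an adjusted p of 0.389.

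HMGCS1, the synthase that forms HMG-CoA, was at 306, 309 and 309 CPM (general) and at 367, 364 and 397 CPM (HHH) in batch 2. The general libraries lay within a few CPM of each other and below all HHH libraries, and the log2 fold change was 0.28 ± 0.08 (SE) at an edgeR adjusted p of 0.0461, kept in 1 of 6 fits. In batch 1 it was at 688 and 714 CPM (general) and at 781 and 584 CPM (HHH), which overlapped. A share of 37.7% of its exon length overlaps another annotated gene.

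SREBF1 was the 1 gene called lower in HHH in batch 2 alone. It was at 42.9, 43.5 and 48.6 CPM (general) and at 35.9, 38.8 and 34.0 CPM (HHH), without overlap, with a log2 fold change of -0.32 ± 0.09 (SE) and an edgeR adjusted p of 0.0312, kept in 2 of 6 fits. In batch 1 it was at 39.4 and 52.4 CPM (general) and at 51.9 and 54.3 CPM (HHH), which overlapped.

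No gene of the 29 was called in batch 2 without general batch 2 replicate 1, where 1709 of all 24417 genes were, and none without general batch 2 replicate 3, where 1300 of 24473 were. With the spread estimated over both batches, an alternative chosen after the data were seen, 3 of the 29 passed in batch 2, against 9.47% of all genes. Without HHH batch 1 replicate 3, the fit over both batches called 4 of 29, ACAT2, HMGCS1, FDFT1 and EBP (the isomerase of the sterol side), all higher in HHH, as were 4.01% of all genes.

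**Figure D3:**
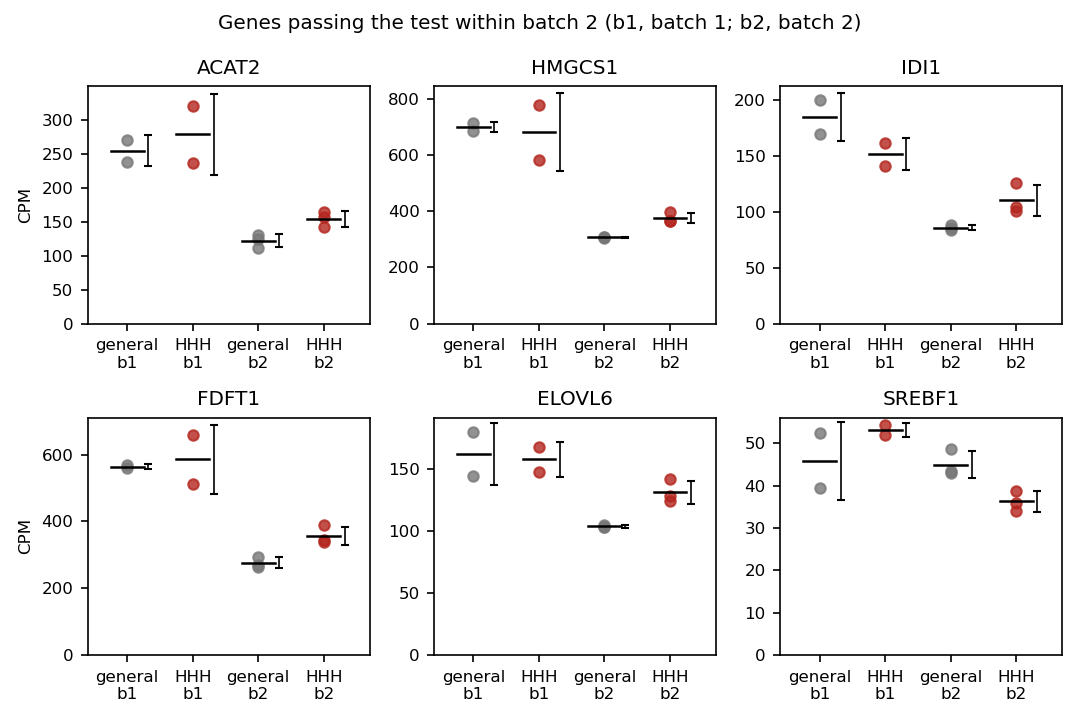
CPM of the 6 genes that passed the test in batch 2 alone, in every library (grey, general population; red, HHH; b1 and b2, batches 1 and 2), with the group mean as a line and its SD as a bar beside it, on axes from 0. In batch 2 all HHH points lie above the general points for 5 genes and below them for SREBF1, and in batch 1 the order is not the same for all.

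The populations did not overlap for 19 genes in batch 2, with HHH above for 12 (18.1% of all genes) and below for 7 (18.2%). In batch 1 HHH lay above for 7 (22.5%) and below for 5 (21.0%). Of these, 1 gene, FADS1 (a desaturase of polyunsaturated fatty acids), lay on the same side in both batches, below the general population, and 6 genes, IDI1, LSS, TM7SF2, MSMO1, SC5D and FASN, lay on opposite sides. By sign of the log2 fold change, 10 genes were above 0 in both batches, 3 below 0 in both, 11 below 0 in batch 1 and above in batch 2, and 5 the reverse. For the splits across both batches, by side and by sign, the share of all genes was not counted. Whether these splits are particular to the genes described here was therefore not tested.

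The difference between the batches in the population effect was itself tested as an interaction. None of the 29 passed (edgeR adjusted p), against 0.777% of all genes, and 10 were under an unadjusted p of 0.05, against 18.9%. DESeq2 called 5 of 29, against 4.83% of all genes, and edgeR without a filter on low counts called 6, against 2.64%. FASN and TM7SF2, a sterol reductase, named here after their values were seen, had the most negative interaction values of the 29. FASN was at 673 and 653 CPM (general) and 854 and 982 CPM (HHH) in batch 1, and at 763, 812 and 733 CPM (general) and 657, 631 and 444 CPM (HHH) in batch 2. HHH was thus above the general population in batch 1 and below it in batch 2 without overlap, and the interaction of FASN was -0.88 on the log2 scale with an edgeR adjusted p of 0.0660. TM7SF2 had -0.75, with an adjusted p of 0.0783.

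The direction in each batch went with the GC content of the genes. The 12 genes above the general population in batch 2 without overlap had an exonic GC content between 34.6% and 56.1% (median 42.6%), and the 7 below it between 53.1% and 65.2% (median 57.0%). Across the 29 genes the log2 fold change and GC content had a Pearson r of 0.77 (Spearman rho 0.72) in batch 1 alone and of -0.72 (rho -0.73) in batch 2 alone, and the interaction had an r of -0.85 (rho -0.87). Over all genes with a GC value these r were 0.15, -0.29 and -0.36. These are correlations across genes of the same libraries, and genes are not independent replicates. When a smooth GC trend over all genes was taken out library by library (chosen for single batches after the data were seen), the members' r was 0.64 in batch 1 and -0.31 in batch 2. With that trend removed, batch 2 alone called 8 of 29 genes, against 11.7% of all genes, and all 8 were higher in HHH (6.44% of all genes were). They were ACAT2, MVK, MVD, IDI1, FDPS, FDFT1, EBP and ELOVL6, with log2 fold changes between 0.28 and 0.42, whereas SREBF1 and HMGCS1 were no longer called. With the GC trend removed, the fit over both batches called 0 of 29, where 3.44% of all genes were called higher. With the replicate block added, on which the unpaired libraries of batch 1 do not weigh, 5 of 29 were called. These were ACAT2, MVD, FDPS, FDFT1 and EBP, all higher, as were 5.11% of all genes. The part of GC content in the population differences was otherwise not tested.

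**Figure D4:**
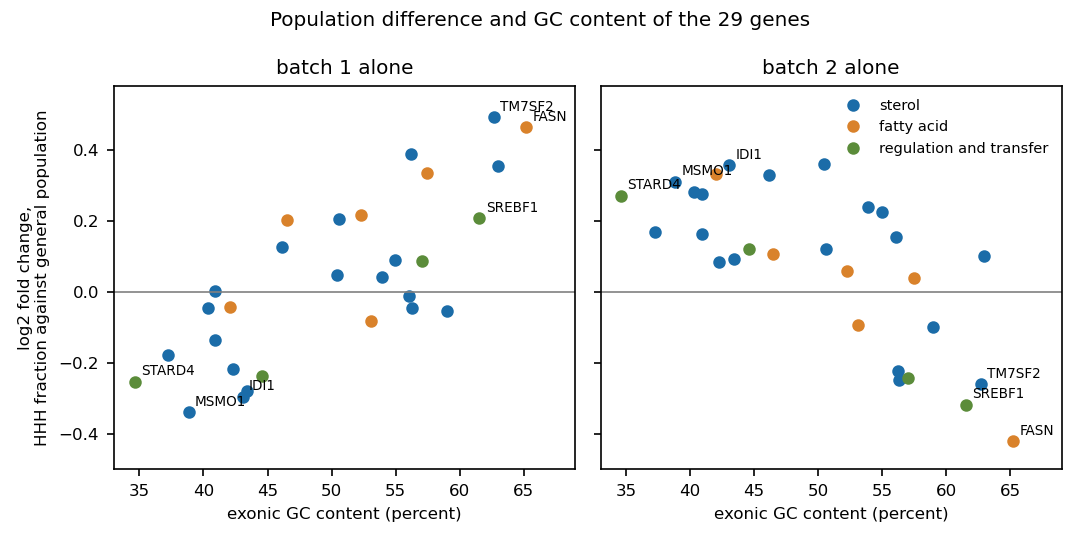
Log2 fold change of HHH against the general population (y axis) against the exonic GC content of each of the 29 genes in percent (x axis), for batch 1 alone (left) and batch 2 alone (right), coloured by gene group. The points rise from left to right in batch 1 (r 0.77) and fall in batch 2 (r -0.72).

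The batches differed far more than the populations did. In batch 2, 25 of the 29 genes were lower than in batch 1 with population as a term (edgeR adjusted p under 0.05), where 23.9% of all genes were, and 0 were higher, where 24.0% were. The median log2 fold change of the 29 was -0.74, against 0.00 over all genes. Of the 25, 18 were lower by more than 1.5-fold, against 8.92% of all genes. For 23 of the 29, every batch 2 library lay below every batch 1 library, against 14.5% of all genes. Scaling by library size only moved the median of all genes to 0.34 and that of the 29 to -0.40, with 18 called lower (7.08% of all genes) and 2 higher (50.6%). Upper quartile scaling called 24 lower (20.4%) and 1 higher (27.2%).

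The 5 largest of these differences were in genes of the sterol pathway. CYP51A1, the demethylase of lanosterol, was at 385 ± 6.17 CPM (SD, n = 2) in the general population and 388 ± 99.4 CPM (SD, n = 2) in HHH in batch 1, and at 155 ± 22.2 and 189 ± 4.88 CPM (SD, n = 3 each) in batch 2. The ranges of the batches did not meet, and the log2 fold change between batches was -1.18 ± 0.11 (SE), with an edgeR adjusted p of 1.38e-06. MVD followed with -1.09 ± 0.09 (SE), DHCR7 and EBP with -1.06 each and HMGCS1 with -1.03 ± 0.09 (SE). HMGCS1, for example, was between 584 and 781 CPM in batch 1 and between 306 and 397 CPM in batch 2.

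Along the pathway, ACAT2 (-0.96) and the kinases MVK (-0.85) and PMVK (-0.44) were lower in batch 2 on the log2 scale, as were IDI1 (-0.79) and FDPS (-0.55), the synthase of farnesyl diphosphate. In the sterol branch FDFT1 (-0.88), SQLE, the epoxidase of squalene (-0.72), and LSS, the cyclase that makes lanosterol (-0.60), were lower, and so were MSMO1 (-0.87), HSD17B7 (-0.85), NSDHL (-0.74) and SC5D (-0.42), which act between lanosterol and cholesterol. All these passed the test. TM7SF2 did not, with -0.21 and an adjusted p of 0.220, nor did GGPS1, which leads away from sterols to geranylgeranyl diphosphate, with 0.20 and an adjusted p of 0.0625.

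Of the fatty acid genes, FADS2 (-0.89), ACLY (-0.59), FADS1 (-0.48), SCD (-0.46) and ELOVL6 (-0.46) were lower in batch 2, on the log2 scale. FASN, with -0.24 and an adjusted p of 0.218, did not pass. Of the regulators, INSIG1 (-0.95) and STARD4, a carrier of sterols between membranes (-0.78), were lower. SREBF1 was lower by a smaller amount (-0.29, adjusted p 0.0375), and SREBF2 did not pass, with -0.01 and an adjusted p of 0.919.

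The difference between batches was present in each population fitted separately. In the general population 23 of 29 genes were lower in batch 2, against 20.8% of all genes, and 0 were higher. In HHH 25 were lower, against 17.4% of all genes, and 1, GGPS1, was higher with a log2 fold change of 0.39 (16.1% of all genes were higher). With each library omitted in turn, between 24 and 25 of the 29 were called lower, against between 20.6% and 23.8% of all genes. Removal of the GC trend left 25 lower, against 28.1% of all genes, and the members' r between this difference and GC content was 0.23. The share of small RNA and of the most abundant genes moved with the batches, as given above. Markers did so too: of the 8 pluripotency markers 4 were higher in batch 2, among them SOX2 (0.99 on the log2 scale), and 2 lower, among them EPCAM (-0.55), and of the 7 neural markers tested FEZF1 (0.80) and LIX1 (0.86) were higher. The part of these in the difference was not tested. Taken as a share of the counts of tested protein-coding genes only, the 29 genes made up 1.10 ± 0.0664% in batch 1 (SD, n = 4) and 0.749 ± 0.0261% in batch 2 (SD, n = 6). Anything else that changed with the batch cannot be told apart from it.

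**Figure D5:**
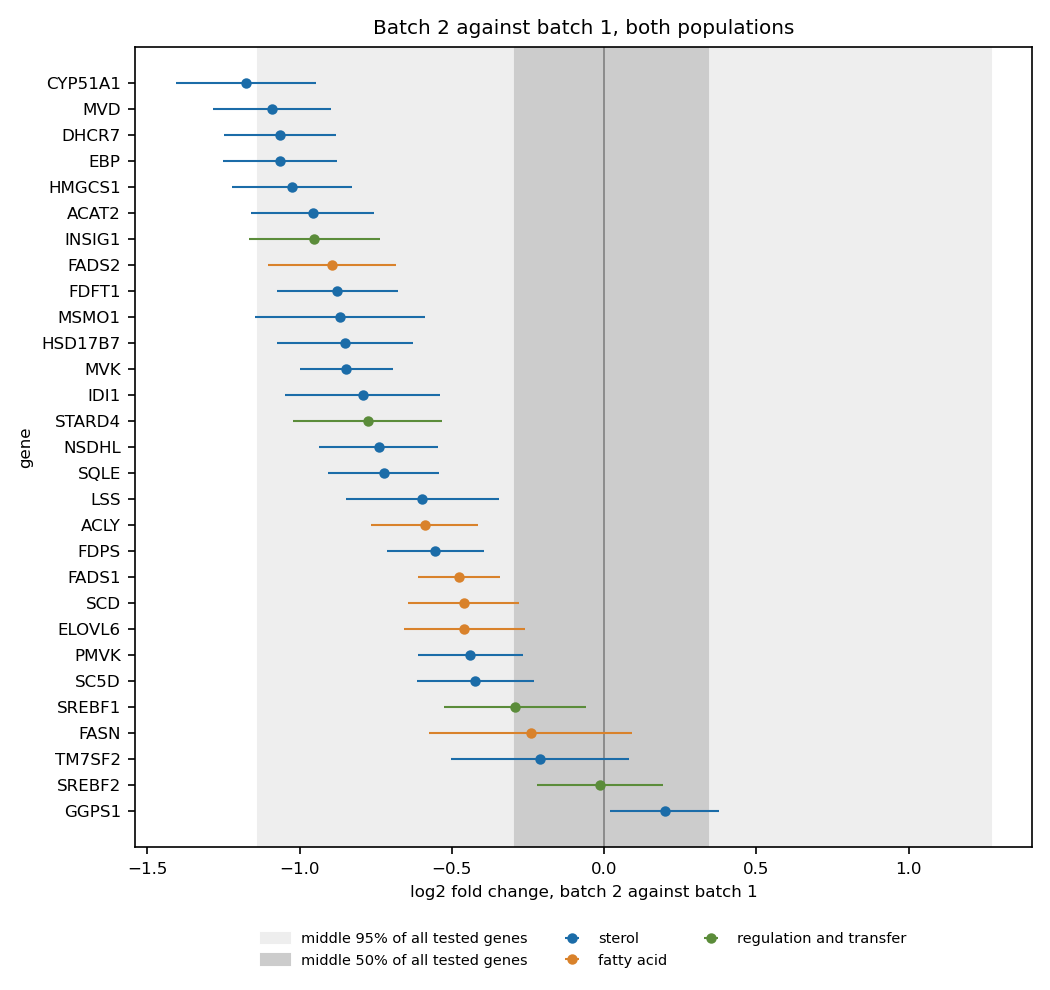
Log2 fold change of batch 2 against batch 1 for each gene, with population as a term, as points with 95% intervals coloured by gene group. Shaded bands hold the middle 50% and 95% of all 23552 tested genes. Of the 29 points, 28 lie below 0, and 1 (GGPS1) lies above it.

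Other genes around the pathway were taken from lists. Of 12 genes that process or degrade SREBPs, 0 passed between the populations over both batches (edgeR adjusted p), where 5.83% of all genes did. Their median log2 fold change was 0.02. In batch 2 alone 1 of the 12 passed, where 13.2% of all genes did. It was INSIG2, a second anchor of the SREBPs, which was higher in HHH by 0.42 on the log2 scale (edgeR adjusted p 0.0375). None of 12 genes of the isoprenoid and dolichol branches passed in either fit, with a median of 0.06.

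Of 15 genes of sterol export, trafficking and esterification, 3 were lower in HHH, against 3.89% of all genes, and 0 were higher (1.94%). ABCA1, which exports cholesterol from the cell, was at 32.5 and 34.4 CPM (general) and 21.0 and 18.4 CPM (HHH) in batch 1, and at 42.4, 41.9 and 42.1 CPM (general) and 16.5, 15.8 and 17.2 CPM (HHH) in batch 2. The groups did not overlap in either batch. The log2 fold change was -1.12 ± 0.10 (SE), with an edgeR adjusted p of 1.19e-05, and it stayed under 0.05 whichever of the 10 libraries was omitted.

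SOAT1, which esterifies cholesterol for storage, was at 19.4 and 14.2 CPM (general) and 7.57 and 10.4 CPM (HHH) in batch 1, and at 10.96, 16.1 and 13.3 CPM (general) and 6.08, 5.88 and 6.31 CPM (HHH) in batch 2. HHH was lower without overlap in both batches. The log2 fold change was -1.05 ± 0.13 (SE), with an edgeR adjusted p of 2.05e-04. GRAMD1B, which moves sterol from the plasma membrane, was lower in HHH, with a log2 fold change of -0.51 ± 0.12 (SE) and an adjusted p of 0.0173. It had -0.11 within batch 1 and -0.78 within batch 2, and kept its call in 6 of 10 fits with a library omitted, its adjusted p being highest (0.0619) without HHH batch 2 replicate 2. The median of this list was -0.05.

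Of 26 genes of fatty acid supply, elongation and activation, 1 was higher (1.94% of all genes were) and 1 lower (3.89%). With the replicate block ACSL1, which activates fatty acids, was also called higher (0.41, edgeR adjusted p 0.0224) and ACACB, an acetyl-CoA carboxylase, also lower (-0.41, adjusted p 0.0223), where 2.32% and 4.63% of all genes were. With the GC trend removed 4 were higher, ME1, MCAT, MECR and ACOT7, against 3.44% of all genes, and 1 lower. ME1, the malic enzyme that supplies NADPH, was at 16.7 and 14.9 CPM (general) and 22.9 and 20.3 CPM (HHH) in batch 1, and at 8.49, 9.34 and 7.15 CPM (general) and 13.8, 12.4 and 11.8 CPM (HHH) in batch 2. HHH was higher without overlap in both, with a log2 fold change of 0.54 ± 0.09 (SE) and an edgeR adjusted p of 0.00273. MLXIPL, a glucose-responsive transcription factor of lipid synthesis, was lower, with a log2 fold change of -0.77 ± 0.16 (SE) and an adjusted p of 0.00873, from a level of 3.264 CPM in the general population. Of 19 genes of fatty acid oxidation, 2 were lower (3.89% of all genes were) and 0 higher (1.94%). The 2 were CPT1C (-0.27, edgeR adjusted p 0.0347) and PPARA (-0.42, edgeR adjusted p 0.0491). Each kept its call in 2 of 10 fits with a library omitted. CPT1C had an adjusted p of 0.0665 with the replicate block and of 0.0636 with the GC trend removed. The neural, pluripotency and fibroblast markers given above moved with the population as well, and their part in these differences was not tested.

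The same lists were counted between batches, where 23.9% of all genes were lower in batch 2 and 24.0% higher. In batch 2, 7 of the 12 SREBP processing genes were lower and 5 higher, 7 of the 15 export and trafficking genes lower and 3 higher, 8 of the 12 isoprenoid genes lower and 0 higher, 11 of the 26 fatty acid supply genes lower and 5 higher, and 5 of the 19 oxidation genes lower and 5 higher. Their medians lay between -0.33 and -0.04 on the log2 scale, beside -0.74 for the 29 synthesis genes, and the difference between lists was not tested. INSIG2 was higher in batch 2, at 15.8 ± 3.18 CPM (SD, n = 6) against 7.66 ± 0.687 CPM (SD, n = 4) in batch 1, a log2 fold change of 1.02 with an edgeR adjusted p of 1.30e-05. ACSS2, which makes acetyl-CoA from acetate, was lower, at 27.5 ± 1.58 against 63.4 ± 16.9 CPM, a log2 fold change of -1.19 with an adjusted p of 1.16e-06.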

How the data were processed

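The authors deposited raw counts per Ensembl gene for the 10 libraries and a table of log2 RPKM values, listed here as a score. The submitters' processing notes name CASAVA 1.8.2, R 3.2.2, limma 3.26.9 and GRCh37; aligner, counter, annotation and strand setting are not given in the sources used here. In the deposited log2 score table the means of the batches agreed to within 9.24e-14 for each of 27641 genes, so a batch term had been taken out, and it served only as an alternative. No column was left unmapped.

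Symbols, exon length, GC content and overlaps came from GENCODE 44 (GRCh38), in which 88.5% of the 55841 identifiers were found. Genes were filtered by filterByExpr (minimum count 10), scaled by TMM and fitted in edgeR 4.0.16 (R 4.3.3) by the quasi-likelihood test with batch and population, then for each batch alone, for the interaction and for batch. Adjusted p are Benjamini-Hochberg over all tested genes, 23552 in the main fit. The fits were tested on simulated data. DESeq2 1.42.0 and limma 3.58.1 were alternatives, as were other scalings, filters, a GC trend (spline, 5 df), and each library left out.

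Genes with library values were those under 0.05 in the main fit or either batch, the 3 highest and 3 lowest fold changes, SREBF1, SREBF2 and INSIG1; of other lists, at most 6 genes of smallest adjusted p. The members and lists were chosen with earlier results of these data known. FASN, TM7SF2 and, for the difference between batches, CYP51A1, other members, INSIG2 and ACSS2 were named after their values were seen. FDPS, CYP51A1 and HSD17B7 have pseudogene copies, and how shared reads were counted is not known.

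Whether replicate numbers pair the libraries within a batch was checked from the deviations from group means. Over all tested genes, same-numbered libraries correlated at 0.24, 0.14 and 0.11 in batch 2. The 1 same-numbered pair of batch 1 had 0.11, but with 2 libraries a group the deviations mirror each other, so that value carries no information on pairing. When only genes averaging 1 CPM or more were used, 1 of the batch 2 values was 0.059, so the pairing depends on the genes used. The block value is given where it changes a call of a member or of a gene of the other pathway lists. The libraries of batch 1 without a same-numbered partner do not weigh on it.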

Additional observations from a re-analysis of the deposited data

Results flagged for a closer look

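In 1 of 58 sets of 5 libraries checked (each of the 29 genes in each population), a single library stood far from the rest. TM7SF2 was at 39.7 CPM in general batch 2 replicate 2, against 30.7 to 32.5 CPM in the other 4 general libraries. Chance marks about 1 in 20 sets by this criterion when all libraries share 1 distribution, whereas each set here held libraries of both batches. Without that library the log2 fold change of TM7SF2 between the populations was 0.14, against 0.05 with it.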

How the results depend on the processing

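For the populations over both batches, the count of 0 among the 29 genes held with RLE, upper quartile or library size scaling. It held with both other filters, DESeq2, limma with voom, the deposited log2 values and the GC trend removed. With no batch term it was also 0, but the difference between batches then entered the spread, so that fit says little. The count became 1 with the replicate block, 5 with the GC trend removed and the replicate block, and 6 in batch 2 alone. It lay between 0 and 4 when each library was left out, with 4 without HHH batch 1 replicate 3. Of 725 single fold changes under these settings, 16 passed the threshold, all in the direction of the main value, and 32 turned sign by more than 1 SE without passing. In batch 1 alone, leaving out a library left 1 library in a population, so no count is given for those fits. In batch 2 alone the count of 6 became 3 with the spread of both batches and lay between 0 and 6 when a library was left out. The interaction count of 0 became 6 without a filter and 5 with DESeq2. It was 1 without HHH batch 2 replicate 3 and 0 without any other batch 2 library. For these fits the share of all genes was not counted, so whether that 1 is unusual was not tested. Without a batch 1 library, 1 population of that batch held 1 library, so no interaction count is given. For batch 2 against batch 1, the count of 25 was taken in either direction. It lay between 20 and 26 under the other scalings, filters, tools and GC removal and between 24 and 26 when a library was left out. All 25 were lower in the main fit. Library size scaling called 18 lower and 2 higher, and upper quartile scaling 24 lower and 1 higher. The cause of these changes was not tested. The alternatives for the difference between batches and those within a batch were chosen after the data were seen.

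With 2 libraries a group in batch 1 and 3 in batch 2, calls within a batch rest on few libraries. The intervals over both batches, which average the batches, leave room for changes of up to 1.37-fold. Within a batch an interval can reach further. For FASN it ran from 0.18 to 0.75 on the log2 scale in batch 1 alone and from -0.71 to -0.13 in batch 2 alone. The lowest count of any of the 29 genes in any library was 577.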
